A study of Mus musculus with 12 samples.

Results

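The Egr and Nr4a immediate early transcription factors were described here in the medial prefrontal cortex of mice: Egr1, Egr2, Egr3 and Egr4, and Nr4a1, Nr4a2 and Nr4a3. Members were chosen by name: every row of the expression table whose gene name equals 1 of these 7 symbols. Rows of the same name were summed. The 7 symbols and the gene lists used below were chosen with earlier results of these data known. Counts set against all tested genes are therefore descriptions. The 7 genes are 7 of 55678 names in the table and 7 of the 16423 genes that had at least 1 TPM (an abundance corrected for transcript length and scaled to the same total in every library) in at least 3 libraries, so no member was lost to this filter. RNA came from 4 groups of 3 mice, 9 to 10 weeks old: C57BL/6JmsSlc (B6) controls, B6 after chronic restraint stress (CRS), BALB/cCrSlc (BALB/c) controls and BALB/c after CRS. CRS mice spent 6 h of each of 21 days in a restrainer, and controls were handled in the same way and left unrestrained. Both are inbred strains with no engineered allele in the labels. Tissue was taken by a 1.5 mm punch at 2.0 to 1.5 mm in front of bregma once behavioural tests were over. The interval between the last restraint, the last test and collection is not in the labels, nor are the sex, litter or time of day. Libraries are named here by strain, treatment and animal number.

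The Egr genes encode zinc finger factors that bind GC-rich sites, and the Nr4a genes encode orphan nuclear receptors that bind as monomers, as dimers or, for Nr4a1 and Nr4a2, with a retinoid X receptor. All are immediate early genes: neuronal activity and growth factors induce their transcription within minutes, without new protein synthesis, through the MAP kinase and calcium pathways and the factors SRF, CREB and MEF2. In the cortex Egr1 is commonly read as a mark of recent neuronal activity and has a high resting level, while the other members are known mainly for transient induction. Nab1 and Nab2 are corepressors of Egr1, Egr2 and Egr3.

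CREB binds the cAMP response element (CRE) or its half-site, and SRF binds the CArG box, so the bases just before the start sites are shown to let these sequences be seen. Windows were taken from RefSeq (GRCm38.p6), 250 bases upstream of a start site. Windows of 5 members were used, 9 in all, and 1 window is printed for each: that holding the most matches, the first by position among equals. Egr1 was left out of this search, and Egr3 had no window, so the counts below do not cover them. Capitals mark the CRE half-site, TGACG or its complement CGTCA, and, in Egr2, also the CArG box.

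Egr2, chr10:67537619-67537868, plus strand: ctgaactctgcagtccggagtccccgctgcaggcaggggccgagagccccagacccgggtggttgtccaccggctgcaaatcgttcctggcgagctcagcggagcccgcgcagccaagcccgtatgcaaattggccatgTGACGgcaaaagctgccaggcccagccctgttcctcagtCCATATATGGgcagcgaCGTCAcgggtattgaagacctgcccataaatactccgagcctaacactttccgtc

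Egr4, chr6:85513590-85513839, minus strand: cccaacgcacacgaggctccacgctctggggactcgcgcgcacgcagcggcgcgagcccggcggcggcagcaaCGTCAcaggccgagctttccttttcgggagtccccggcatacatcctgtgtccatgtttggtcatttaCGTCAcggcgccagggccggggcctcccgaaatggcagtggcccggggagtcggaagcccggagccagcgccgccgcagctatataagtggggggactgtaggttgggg

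Nr4a1, chr15:101266596-101266845, plus strand: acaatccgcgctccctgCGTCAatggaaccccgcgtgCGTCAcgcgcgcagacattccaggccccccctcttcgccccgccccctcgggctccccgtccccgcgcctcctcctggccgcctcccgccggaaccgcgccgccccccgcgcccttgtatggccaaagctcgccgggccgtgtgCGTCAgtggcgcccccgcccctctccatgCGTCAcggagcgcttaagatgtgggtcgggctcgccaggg

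Nr4a2, chr2:57124004-57124253, minus strand: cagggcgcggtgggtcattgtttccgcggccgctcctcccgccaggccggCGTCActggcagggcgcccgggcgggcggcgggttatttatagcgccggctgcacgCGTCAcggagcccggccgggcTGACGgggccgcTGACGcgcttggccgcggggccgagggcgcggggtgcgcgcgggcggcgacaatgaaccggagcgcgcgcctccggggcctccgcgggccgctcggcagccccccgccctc

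Nr4a3, chr4:48045055-48045152, plus strand: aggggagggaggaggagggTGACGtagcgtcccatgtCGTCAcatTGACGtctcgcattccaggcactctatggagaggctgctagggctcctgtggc

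The Nr4a3 sequence stops after 98 bases because the other 152 bases of its window lie in exons of GENCODE M21. The printed Egr2 and Nr4a1 windows lie inside the M21 gene spans, in introns of longer transcripts. Counting both strands, the half-site occurred 4 times in the window of Nr4a1, 4 times in that of Nr4a2, 4 times in the full window of Nr4a3, and 2 times in those of Egr2 and Egr4. Of all 32851 RefSeq windows of the same length, 17.8% held at least 1 half-site, 3.9% at least 2 and 0.137% at least 4. The CArG box occurred in 4 of the 5 Egr2 windows and in 1.47% of all windows. The Egr2 windows overlap, and 3 of these 4 share the printed box, so they hold 2 distinct boxes. Of the 5 Egr2 windows, 2 held no half-site. The full CRE, TGACGTCA, which overlaps its half-site on both strands, was in 1.55% of all windows and in no window of the 5 members. The monomer site of the NR4A receptors, AAAGGTCA, was in 1.34% of all windows and in no window of these 5 members. The EGR site GCGNGGGCG was in 4.7% of all windows and occurred 1 time each in the Nr4a1 and Nr4a2 windows. These matches describe the letters only.

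Depth is unknown, since this unit does not keep it. The labelled tissue was checked on marker genes. All 7 excitatory cortical neuron markers, Slc17a7 among them, were tested, with summed levels of 1938.2 to 4478.9 TPM per library. Striatal neuron markers such as Drd1 and Adora2a were also present, at 232.93 to 2994.6 TPM in B6 controls, 1048.2 to 2459.5 TPM in B6 CRS, 135.77 to 420.87 TPM in BALB/c controls and 153.88 to 203.24 TPM in BALB/c CRS. No marker gene of either list was at 0 in all libraries. BALB/c CRS 12 stood apart from the other 11 libraries in its 18S ribosomal RNA, which took 3.97% of TPM against 0.031% to 0.169%. The comparison of CRS with control in BALB/c is therefore also given without it. Other comparisons that use this library are not given gene by gene without it.

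On the TPM scale, which corrects for length, the level of Egr1 was the highest of the 7 in 12 of 12 libraries, with a mean of 126.5 TPM over all libraries. Nr4a1 at 71.3 TPM and Egr3 at 71.0 TPM followed, and their order changed between libraries, Nr4a1 being the higher in 5 of 12. Egr4, at a mean of 33.6 TPM, was below Egr3 in 12 of 12 libraries and above Nr4a3, at 12.0 TPM, in 12 of 12. Nr4a3 was above Nr4a2, at 8.91 TPM, in 10 of 12 libraries. Nr4a2 and Egr2, at 7.25 TPM, did not separate, Nr4a2 being the higher in 7 of 12. Within the Egr family, Egr1 supplied 47.6% to 61.3% of the summed TPM of a library and Egr2 1.45% to 5.03%. Within the Nr4a family, Nr4a1 supplied 64.5% to 84.7%.

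**Figure D1:**
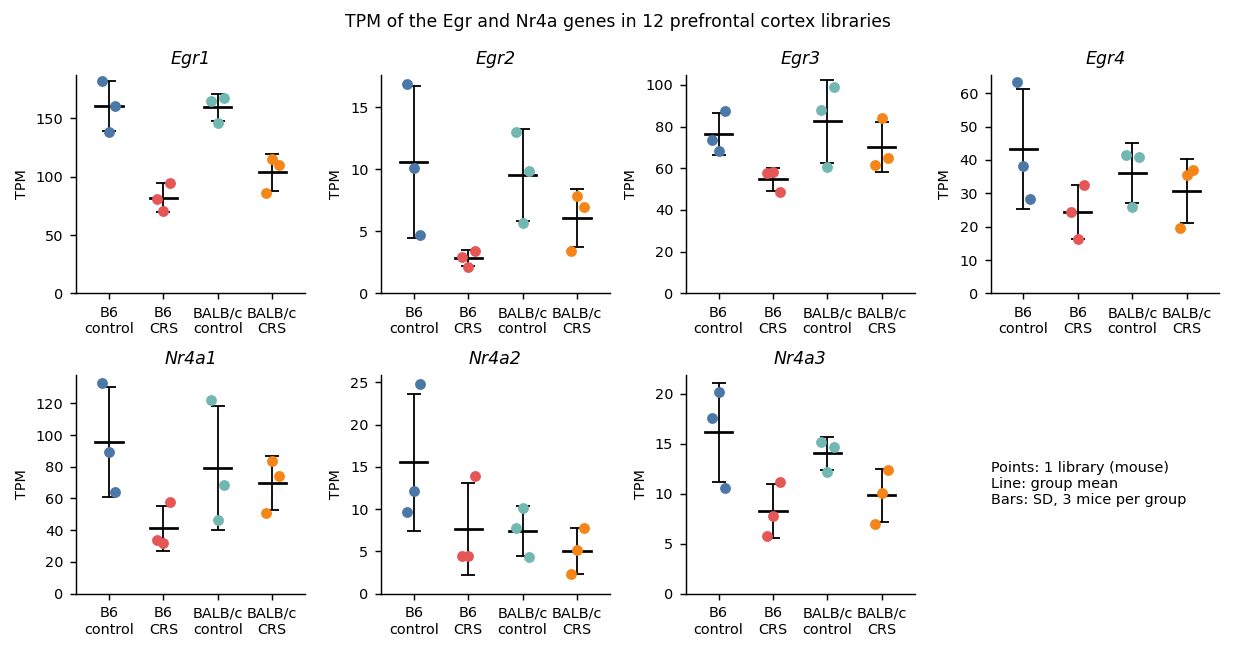
TPM of each Egr and Nr4a gene (vertical axes, from 0) in the 4 groups; a point is 1 library, the line is the group mean and bars are the SD of 3 mice. The B6 CRS points of Egr1, Egr2, Egr3 and Nr4a1 all lie below the B6 control points, and in BALB/c this holds for Egr1.

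The first comparison asked how these genes differ between CRS and control mice of the B6 strain. All 7 had a lower mean after CRS, from 26.9% of the control mean for Egr2 to 71.8% for Egr3, where 49.7% of all tested genes had a log2 difference below 0. For Egr1, Egr2, Egr3 and Nr4a1 every CRS library was below every control library. None of the 7 passed the threshold of an adjusted p-value under 0.05 over all genes tested (limma, Benjamini-Hochberg), and neither did any other gene. In bulk tissue, fewer cells of a type and less RNA per cell cannot be told apart.

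Egr1, a zinc finger activator and the most abundant member, is on chromosome 18. B6 controls 2, 3 and 9 had 182, 139 and 161 TPM of it, and B6 CRS 12, 13 and 14 had 80.6, 70.3 and 94.8 TPM. The highest CRS library was well below the lowest control. The log2 difference was -0.96 (SE 0.15, 95% interval -1.28 to -0.64, limma adjusted p 0.224), and Egr1 ranked 2 of 16423 genes by p in this contrast.

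Egr2, on chromosome 10 (67535475 to 67542188, plus strand, GRCm38), is known for its part in myelination by Schwann cells and in hindbrain patterning. By its mean over 12 libraries it was the least abundant member, and the same controls had 16.9, 10.1 and 4.67 TPM and the CRS mice 2.96, 2.13 and 3.44 TPM. The groups did not overlap, although control 9, at 4.67 TPM, was close to the highest CRS library, at 3.44 TPM. Its log2 difference, -1.45 (SE 0.40, limma adjusted p 1), was the lowest of the 7.

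Egr3, on chromosome 14 (70077203 to 70082614, plus strand), is known in muscle spindle development and is itself induced by activity. Its level was 73.7, 68.0 and 87.3 TPM in the controls, against 57.8, 58.2 and 48.5 TPM after CRS. The 3 CRS libraries were again the lower. On the log2 scale the difference was -0.47 (SE 0.18, limma adjusted p 1), the nearest to 0 of the 7.

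Egr4, on chromosome 6 (85511121 to 85513589, minus strand), is a member known to repress its own promoter. Controls had 63.3, 38.2 and 28.2 TPM, and CRS mice 24.4, 16.4 and 32.5 TPM. The groups overlapped, since CRS 14 was above control 9. Egr4 differed by -0.77 on the log2 scale (SE 0.33, limma adjusted p 1), and without B6 control 2, the highest library, it was -0.46 (limma adjusted p 0.68).

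Nr4a1, on chromosome 15 (101254269 to 101274795, plus strand), is the orphan receptor Nur77, the most abundant of its family here. The 3 controls had 133, 89.2 and 64.2 TPM, and the 3 CRS libraries 33.8, 32.1 and 57.7 TPM. The groups did not overlap, with CRS 14 the nearest to the controls. At -1.18 (SE 0.36, limma adjusted p 1), its log2 difference was the lowest of the Nr4a family.

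Nr4a2, on chromosome 2 (57106830 to 57124003, minus strand), is Nurr1, required for midbrain dopamine neurons and in the cortex also a marker of claustrum and deep-layer neurons. Levels were 9.65, 12.2 and 24.8 TPM in controls, against 4.43, 4.51 and 13.9 TPM in the CRS libraries. Control 9 and CRS 14 stood above the other libraries of their groups, and the groups overlapped. Nr4a2 differed by -1.01 on the log2 scale (SE 0.47, 95% interval -2.04 to 0.02, limma adjusted p 1). It was -0.63 without control 9 and -1.49 without CRS 14.

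Nr4a3, on chromosome 4 (48045153 to 48086447, plus strand), is the receptor NOR-1. Controls had 17.6, 20.2 and 10.6 TPM and CRS mice 5.79, 7.79 and 11.1 TPM, where only CRS 14 reached a control. Nr4a3 differed by -0.89 on the log2 scale (SE 0.26, limma adjusted p 1).

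Of the 7 genes in B6, 0 were called, against 0% of all tested genes. At an unadjusted p under 0.05, 6 of 7 were lower, Nr4a2 being the exception, against 1.99% of all tested genes (4.82%, or 792 genes, in either direction). For 4 of 7 the groups were apart, against 3.7% of all tested genes in that direction. The median log2 difference of the 7 was -0.96, and that of all tested genes was 0. Egr2 and Nr4a1 at -1.06 and -0.91 were nearer to 0 without B6 control 2, which had the highest level of 12 libraries for Egr1, Egr2, Egr4 and Nr4a1 and also the highest striatal and oligodendrocyte marker sums, 2994.6 and 9529.1 TPM. In B6, 10 of 10 striatal markers had a log2 difference above 0 (median 1.21) and 7 of 7 excitatory markers had one below 0 (median -0.44), with none called. With the striatal score as a covariate the 7 differences were below 0, from -1.78 for Egr2 to -0.36 for Egr3. A fit to 12 libraries cannot separate tissue makeup from restraint, and the part of tissue makeup in the B6 values was not tested.

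The same comparison in BALB/c asked whether these genes also differed there. All 7 means were again lower after CRS, from 63.9% of the control mean for Egr2 to 87.9% for Nr4a1, where 37.4% of all tested genes had a log2 difference below 0. Of the 7 genes, the groups separated only for Egr1. None of the 7 was called (limma).

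BALB/c controls 5, 9 and 10 had 165, 146 and 167 TPM of Egr1, and BALB/c CRS 12, 13 and 15 had 86.0, 116 and 110.5 TPM. All 3 CRS libraries were below all 3 controls. This difference was -0.62 on the log2 scale (SE 0.15, 95% interval -0.94 to -0.30, limma adjusted p 1), rank 7 by p among all genes tested, and -0.49 without CRS 12.

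For Egr2 the controls had 13.0, 5.63 and 9.88 TPM and the CRS mice 3.44, 7.83 and 6.96 TPM. Control 9 lay among the CRS libraries. Its log2 difference was -0.57 (SE 0.40, limma adjusted p 1), or -0.26 without CRS 12 and -0.86 without control 9.

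Egr3 levels were 87.8, 60.6 and 99.0 TPM without restraint and 61.4, 84.0 and 65.1 TPM with it. The lowest of these 6 libraries was a control. Its log2 difference, -0.21 (SE 0.18, limma adjusted p 1), was within the spread of the libraries. It was -0.13 without CRS 12, and ran from -0.42 without control 9 to -0.068 without control 10.

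Egr4 levels were 41.5, 25.8 and 41.0 TPM in the controls, against 19.6, 35.6 and 36.9 TPM after CRS. The groups overlapped, and the log2 difference of -0.25 (SE 0.33, limma adjusted p 1) became 0.04 without CRS 12.

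Nr4a1 reached 122, 46.5 and 68.6 TPM in the 3 controls, and CRS mice had 50.8, 83.9 and 73.9 TPM. Control 5 was far above the rest, and in only 4 of the 9 pairs of a CRS and a control library was the CRS library the lower. Its estimate was -0.10 on the log2 scale (SE 0.36, 95% interval -0.88 to 0.68, limma adjusted p 1). It was 0.10 without CRS 12 and 0.26 without control 5, so its sign rested on single libraries.

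Nr4a2 levels were 7.76, 10.2 and 4.36 TPM without restraint and 2.33, 5.14 and 7.71 TPM with it. The groups overlapped, with CRS 12 the lowest library and control 9 the highest. The estimate was -0.52 on the log2 scale (SE 0.47, limma adjusted p 1), or -0.14 without CRS 12 and -0.28 without control 9. It was -0.835 without CRS 15.

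For Nr4a3 the controls had 15.2, 12.1 and 14.7 TPM and the CRS mice 7.01, 10.1 and 12.3 TPM. In 8 of 9 pairs the CRS library was the lower. Its difference was -0.50 on the log2 scale (SE 0.26, 95% interval -1.08 to 0.08, limma adjusted p 1), or -0.30 without CRS 12.

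Of the 7 genes in BALB/c, 0 were called, against 0.00609% of all tested genes. At an unadjusted p under 0.05 only Egr1 was lower, 1 of 7, against 0.627% of all tested genes (3.03%, or 497 genes, in either direction). For 1 of 7 the groups were apart, against 2.02% in that direction. Egr1 was the 1 member with groups apart and lower in both strains, as were 31 of all tested genes (0.189%). The median log2 difference of the 7 was -0.50, and that of all tested genes was 0.05. Without CRS 12, the library with the high 18S share, 5 of the 7 differences stayed below 0, and the part of that library's RNA quality in the result was not tested.

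**Figure D2:**
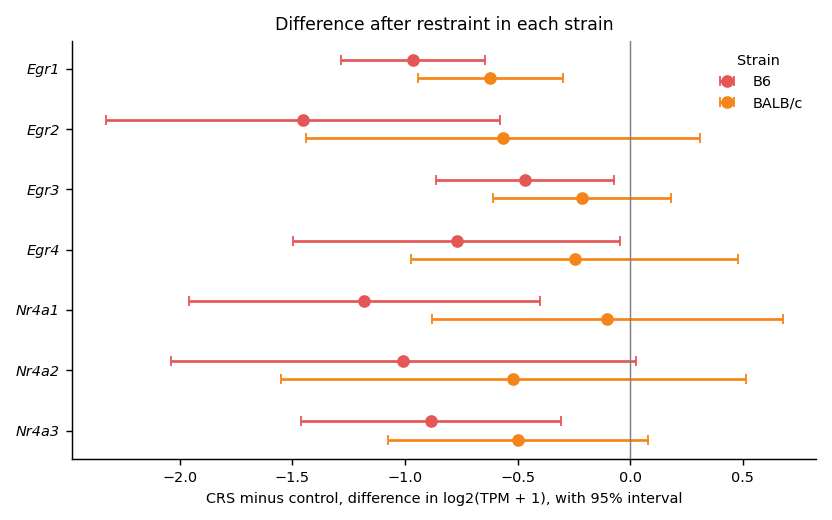
Difference in log2(TPM + 1) between CRS and control mice (horizontal axis, 0 marked) for each Egr and Nr4a gene. Points are limma estimates of 3 CRS against 3 control libraries. Bars are 95% intervals from a spread pooled over all 4 groups, so a gene has the same SE in both strains. All 14 points lie below 0, and the BALB/c interval excludes 0 for Egr1 alone.

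The second comparison asked whether the CRS difference itself differed between strains. For each of the 7 genes the difference was nearer to 0 in BALB/c, so all 7 interaction values were above 0, from 0.25 for Egr3 to 1.08 for Nr4a1. None was called (limma adjusted p 1.00), against 0% of all tested genes, and 0 of 7 had an unadjusted p under 0.05, against 2.7% of all tested genes (443 genes). For Nr4a1 the 95% interval was -0.02 to 2.18, and for Egr1, at 0.34, it was -0.11 to 0.79. The strains are thus not shown to differ in the CRS difference of any member, and these intervals also allow sizeable differences. Over all tested genes 40.3% of interaction values were below 0, and the median was 0.05.

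Averaged over both strains, the log2 difference was -0.79 for Egr1 (SE 0.10, limma adjusted p 0.0509), the second lowest p of all genes tested. It was lower in 18 of 18 pairs of a CRS and a control library of the same strain. The other 6 genes lay between -0.34 for Egr3 and -1.01 for Egr2, with adjusted p 0.946 each (limma), and 42% of all tested genes were below 0. Of the 7 genes, 0 were called, against 0.00609% of all tested genes, and 6 were lower at an unadjusted p under 0.05, against 1.55%, with Egr4 the exception. Egr1 was called in 4 of 23 alternative settings, and its value ran from -0.85 to -0.66 across them (adjusted p 0.00853 to 0.887, limma). The 4 were a minimum mean of 5 TPM (adjusted p 0.032), median-of-ratios scaling (-0.82, adjusted p 0.00853), TPM rescaled without mitochondrial RNA, Bc1 and 18S (-0.80, adjusted p 0.015) and leaving out B6 CRS 14 (-0.85, adjusted p 0.0405), all by limma.

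The third comparison set BALB/c against B6 in mice of the same treatment. In controls, 6 of the 7 genes differed between strains by at most 0.32 on the log2 scale, and Egr1 had nearly the same mean, 160.4 ± 21.6 TPM for B6 and 159.5 ± 11.7 TPM for BALB/c (SD, n = 3 per strain). Nr4a2 was the exception, with 15.5 ± 8.09 TPM for B6 and 7.43 ± 2.92 TPM for BALB/c (SD, n = 3 per strain). Its log2 difference was -0.93 (SE 0.47, limma adjusted p 0.32), with 1 BALB/c control above the lowest B6 control. Of the 7 genes 0 were called in controls, against 4.73% of all tested genes, and 0 had an unadjusted p under 0.05, against 18.7% (3073 genes). The median of all tested genes was -0.10 in this contrast and 0.004 after median-of-ratios scaling, and with that scaling the differences of Egr1 (0.12) and Egr2 (0.05) changed sign.

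Under CRS, 6 of 7 genes were higher in BALB/c than in B6, where 58.7% of all tested genes were lower, and Nr4a2 was the exception at -0.44 (SE 0.47). Egr2 had 2.84 ± 0.66 TPM in B6 against 6.08 ± 2.33 TPM in BALB/c (SD, n = 3 per strain), every BALB/c library lying above every B6 library by a small margin. Egr3 had 54.8 ± 5.49 TPM against 70.2 ± 12.1 TPM (SD, n = 3 per strain), and its groups also did not overlap. Non-overlap in this direction was thus seen for 2 of 7, against 9.29% of all tested genes. The log2 difference was 0.84 (SE 0.40, limma adjusted p 0.231) for Egr2 and 0.34 (SE 0.15, limma adjusted p 0.182) for Egr1. None of the 7 was called, against 7.7% of all tested genes (2.37%, or 389 genes, as higher), and 1 of 7, Egr1, was higher at an unadjusted p under 0.05, against 7.14%. With median-of-ratios scaling Egr1 was called at 0.41 (limma adjusted p 0.0498). Cell type markers also lay to 1 side in this contrast. Of the excitatory markers, 7 of 7 were above 0 (median 0.52, with Neurod6 called at 1.02, limma adjusted p 0.0238). Of the striatal markers, 10 of 10 were below 0 (median -3.15, 9 called). Of the oligodendrocyte markers, 7 of 7 were below 0 without overlap (median -2.25, none called), as were 3292 of all 16423 tested genes. Oligodendrocyte markers such as Mbp summed to 2710.2 to 7709.8 TPM in B6 CRS and 534.83 to 1436.3 TPM in BALB/c CRS. In controls the same 3 lists lay on the same sides, with medians of 0.19, -1.57 and -2.21 and none called. The part of tissue makeup in the strain values was not tested. Each strain comparison uses the same groups as the restraint comparisons, so they are not independent of them.

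The members did not all follow each other across libraries. As a description over 12 libraries, with each strain's mean subtracted, Egr2 had a Pearson correlation in log2(TPM + 1) of 0.933 with Egr4 and 0.924 with Nr4a1. The correlations of Nr4a2 with the other 6 ran from 0.263 to 0.661, and those of Egr3 from 0.263 to 0.708. With group means subtracted instead, the correlation was 0.926 for Egr2 with Egr4, 0.89 for Egr2 with Nr4a1 and -0.126 for Egr2 with Nr4a2, so Egr2 tracked Egr4 and Nr4a1 also among mice of the same group. These points share libraries and the fixed total of TPM.

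Among 10480 other genes with a mean of at least 5 TPM, the 3 most like each member by the first of these measures were then listed. Egr2 was nearest to Junb (0.96), Per1 (0.94) and Fos (0.92). Egr4 was nearest to Per1 (0.94), Midn (0.93) and Mknk2 (0.92). Nr4a1 was nearest to Dusp1 (0.94), Junb (0.93) and Btg2 (0.92). Nr4a3 was nearest to Fos (0.90), Junb (0.89) and Immp1l (0.86). Junb and Fos encode AP-1 subunits, Dusp1 a MAP kinase phosphatase and Per1 a clock protein. Egr1 was nearest to P4ha1 (0.90), Tsc22d3 (0.87) and Sdf2l1 (0.87), Egr3 to Ctnnd1 (0.93), Kcnj12 (0.92) and Per3 (0.88), and Nr4a2 to Chrna4 (0.93), Limk1 (0.93) and Cadm4 (0.92). Other immediate early genes from the list below were counted among the 20 genes nearest to each member. They made up 8 for Nr4a1, 8 for Nr4a3, 7 for Egr2, 4 for Egr4, 3 for Egr1, 1 for Nr4a2 and 0 for Egr3. At most 30 of the 10480 genes are on that list. Only strain means were subtracted, so differences between CRS and control libraries enter these correlations.

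Other immediate early genes were described beside the members with a list of 30, all tested. This list too was chosen with earlier results of these data known. In B6, 29 of 30 had a log2 difference below 0, Plk2 being the exception, with a median of -0.45 against 0 for all tested genes. At an unadjusted p under 0.05, 12 were lower, 12 were lower without overlap of the groups, and 0 were called, against 1.99%, 3.7% and 0% of all tested genes. The lowest p belonged to Arc, a dendritic scaffold protein (-1.47, SE 0.34), Fos (-1.68, SE 0.43) and Dusp1 (-1.01, SE 0.28), with adjusted p 0.993, 1 and 1 (limma). In BALB/c, 25 of 30 were below 0 with a median of -0.24 against 0.05, 2 were lower at an unadjusted p under 0.05 (0.627% of all tested genes), and 0 were called. These 2 were Ier5 (-0.42, SE 0.16) and Homer1 (-0.39, SE 0.18), whose groups also did not overlap (2.02% of all tested genes in this direction). Gadd45b followed at 0.30 (SE 0.15). Averaged over strains, 29 of 30 were below 0, with a median of -0.34, and 11 were lower at an unadjusted p under 0.05 (1.55% of all tested genes), led by Ier5, Arc and Fos.

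**Figure D3:**
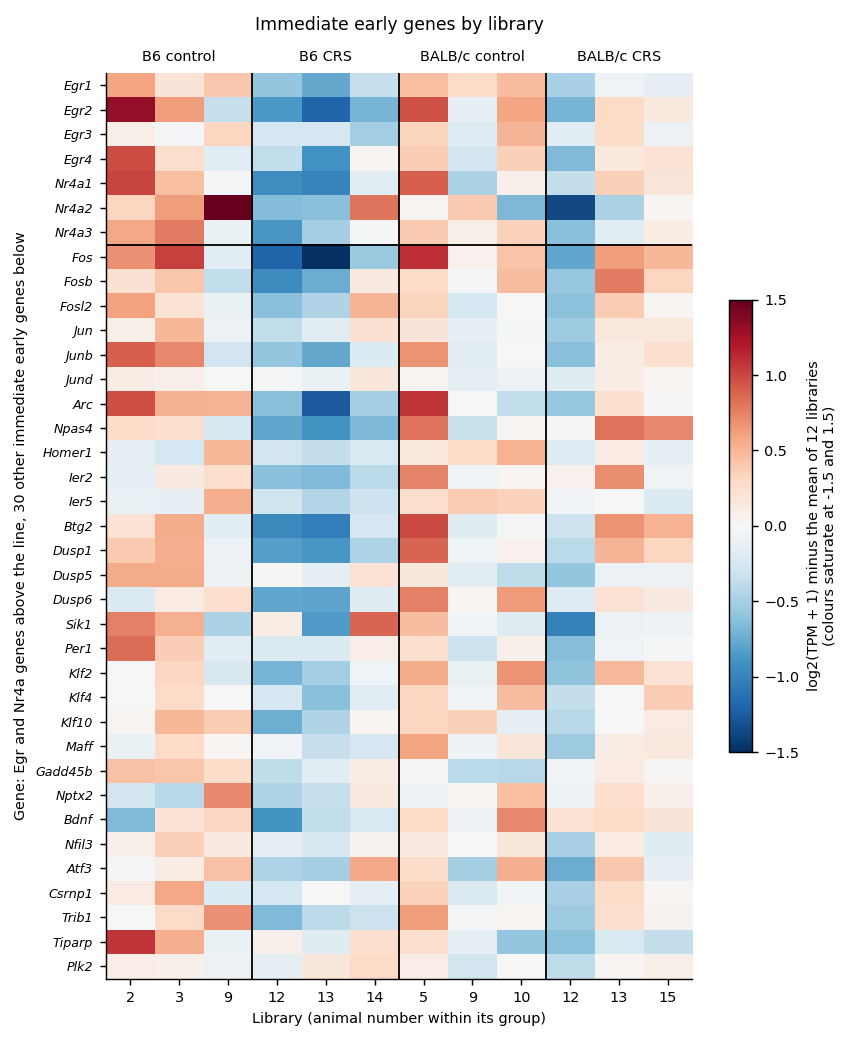
Level of the 7 Egr and Nr4a genes (above the line) and 30 other immediate early genes (below) in each of the 12 libraries; colour is log2(TPM + 1) minus the gene's mean over all libraries. B6 CRS 12 and 13 are below the mean for all 7 members, while B6 CRS 14 is above it for Nr4a2 (by 0.80) and slightly for Egr4 (by 0.034).

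The rest of the pathway was described from lists of upstream and downstream genes. Of 14 kinases and phosphatases upstream of these genes, 10 were below 0 in B6 (median -0.04) and 5 in BALB/c (median 0.05). None of the 14 was called, against 0% of all tested genes in B6 and 0.00609% in BALB/c. At an unadjusted p under 0.05 there were also none, against 4.82% and 3.03%. Those of lowest p were Rps6ka1 (-0.17), Mapk3 (0.17) and Rps6ka5 (0.31) in B6, and Mapk3 (0.32), Rps6ka2 (0.23) and Rps6ka5 (0.28) in BALB/c. Of 16 SRF, ternary complex, CREB, MEF2 and NFAT factors and their coactivators, 10 were below 0 in B6 (median -0.03) and 3 in BALB/c (median 0.08), with none called. Crem, a CREB family gene with an activity-induced repressor isoform, had 23.7, 25.9 and 27.4 TPM in the B6 controls, against 19.4, 22.5 and 22.1 TPM after CRS. Its B6 groups did not overlap (3.7% of all tested genes in this direction), and its log2 difference was -0.26 (SE 0.11, limma adjusted p 1). Crem was the 1 gene of the 16 with an unadjusted p under 0.05 in B6, against 4.82% of all tested genes. It was followed by Mrtfa (0.25) and Elk3 (-0.14) in B6, and in BALB/c the lowest p belonged to Crtc3 (0.31), Mrtfa (0.30) and Crem (-0.18).

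Partners and reported targets were described in the same way. Of the corepressors Nab1 and Nab2 and the retinoid X receptors Rxra, Rxrb and Rxrg, 2 were below 0 in each strain, and none was called in a restraint comparison. In B6, Nab1 and Nab2 were both at -0.26 (SE 0.14 and 0.15) and Rxrg at 1.01 (SE 0.54). In BALB/c, Nab2 was at -0.18 (SE 0.15), Nab1 at 0.16 and Rxra at -0.06. Rxrg varied with the striatal marker sum among B6 controls, from 5.15 TPM in control 9 (232.93 TPM) to 47.6 TPM in control 2 (2994.6 TPM). It was called as lower in BALB/c under CRS (-2.01, SE 0.54, limma adjusted p 0.0434), where 9 of 10 striatal markers were called as lower too; the part of striatal tissue in that value was not tested. Of 8 genes reported as Egr targets, 7 were tested, and 5 of 7 were below 0 in B6 (median -0.19) and 3 in BALB/c (median 0.01). Arc, Nab2 and Bdnf had the lowest p in B6 (-1.47, -0.26 and -0.45), and Nab2, Arc and Syn2 in BALB/c (-0.18, -0.35 and 0.18). Arc, Nab2 and Bdnf are also in other lists here. Of 8 genes reported as Nr4a targets, 6 were tested, and 3 of 6 were below 0 in B6 (median -0.02) and 2 in BALB/c (median 0.06). Ret (0.62), Bdnf (-0.45) and Th (-0.28) had the lowest p in B6, and Th (-0.41), Ret (0.19) and Vip (0.14) in BALB/c. None was called in either strain (limma).

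Each member is held in the table as 1 to 7 rows, apparently 1 per transcript, and reads shared by transcripts are divided among rows by estimation. Rows carry the gene name alone, so which transcript a row stands for is not known. In Egr1 both rows were lower after CRS in both strains: in B6 the higher row had 140.0 ± 19.4 TPM in controls against 71.4 ± 10.9 TPM after CRS, and the other 20.4 ± 2.25 against 10.5 ± 1.63 TPM (SD, n = 3 each). In Egr2, 98.1% of TPM was in 1 of 7 rows, and 5 rows were listed at 0 in all libraries.

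Nr4a1 differed between its rows. Its highest row had 85.9 ± 32.7 TPM in controls of B6, against 31.1 ± 12.3 TPM after CRS, while the other 3 rows summed to 9.46 ± 2.62 and 10.1 ± 2.10 TPM (SD, n = 3 each). In BALB/c the highest row had 66.4 ± 40.6 and 52.4 ± 17.7 TPM, and the other 3 rows summed to 12.7 ± 4.18 and 17.1 ± 2.03 TPM (SD, n = 3 each). The lower mean after CRS was thus in the highest row in both strains, which held 66.4% to 92.0% of the TPM of a library. In BALB/c that lower mean rested on control 5, at 112 TPM in this row. Controls 9 and 10 had 35.6 and 51.1 TPM, against 33.7, 68.9 and 54.7 TPM in CRS 12, 13 and 15. With the highest row in place of the sum, the B6 log2 difference of Nr4a1 was -1.43 (limma adjusted p 1), and that of Nr4a2 in BALB/c changed sign to 0.02.

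**Figure D4:**
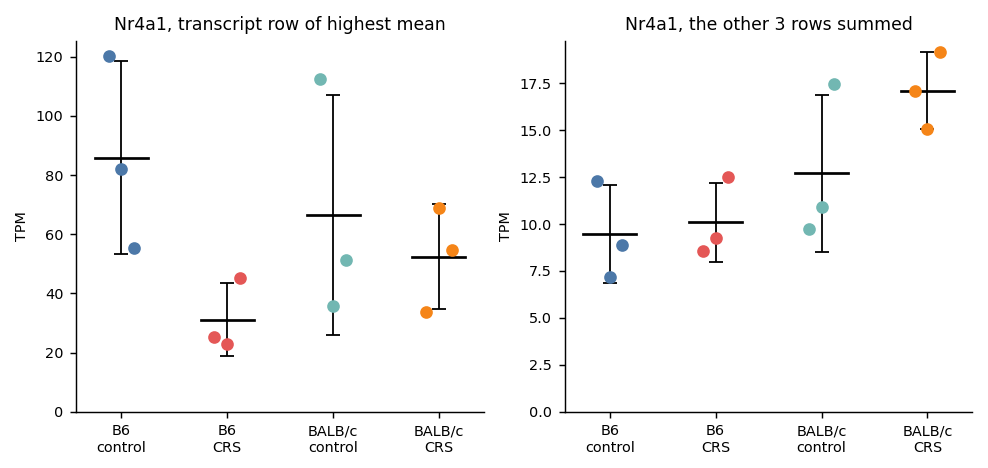
TPM of Nr4a1 in its row of highest mean (left) and in its other 3 rows summed (right), by group; a point is 1 library, the line the group mean and bars the SD of 3 mice, and the panels have different scales. In B6 the mean of the highest row is 85.9 TPM in controls and 31.1 TPM in CRS mice, and that of the other rows is 9.46 and 10.1 TPM.

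Nr4a2 differed from most other members in which libraries were high. Its highest levels were in B6 control 9 (24.8 TPM) and B6 CRS 14 (13.9 TPM). These libraries had the highest excitatory marker sum of their groups (4478.9 and 2713.7 TPM). They also had the lowest striatal (232.93 and 1048.2 TPM) and oligodendrocyte (2471.5 and 2710.2 TPM) marker sums of their groups. B6 control 9 was also the highest B6 library for Egr3 (87.3 TPM), while B6 CRS 14 was the lowest for it (48.5 TPM). Of 7 claustrum and layer 6b markers, all tested, 7 had a log2 difference below 0 in B6 (median -0.18) and 4 in BALB/c (median -0.06), with none called. Between strains (BALB/c minus B6), 5 of the 7 were below 0 in controls (median -0.73) and 5 under CRS (median -0.62). Of all tested genes 4.73% and 7.7% were called there, and in each contrast 1 of these 7 markers. Their sum was 151.0 to 214.7 TPM in B6 controls, 132.7 to 176.0 TPM in B6 CRS, 136.1 to 153.6 TPM in BALB/c controls and 120.2 to 157.9 TPM in BALB/c CRS, and it was highest in its group in B6 control 9 and B6 CRS 14 as well. The single markers were less even than their sum. In B6 control 9, Gnb4, Ntng2, Synpr and Oprk1, 4 of the 7, were at their highest of the group and Ccn2 and Nxph4, 2 of the 7, at their lowest. In B6 CRS 14, Ntng2, Cplx3, Ccn2 and Nxph4 were at their highest of the group and Synpr and Oprk1 at their lowest, so Ntng2 alone was highest in both libraries. The part of the share of these neurons in the Nr4a2 values was not tested.

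**Figure D5:**
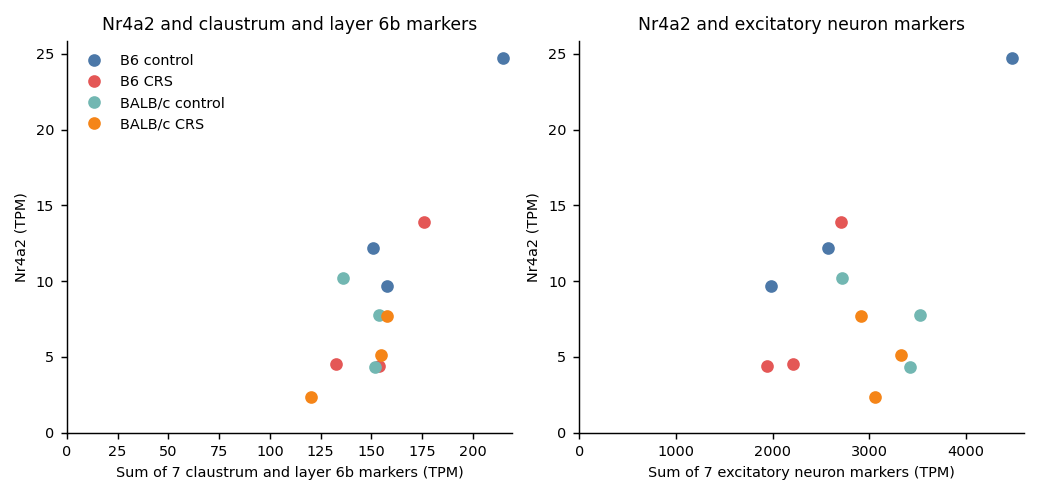
Nr4a2 (vertical axes, TPM) against the summed TPM of 7 claustrum and layer 6b markers (left) and of 7 excitatory neuron markers (right) in 12 libraries coloured by group. B6 control 9 (24.8 TPM of Nr4a2) is at the right of both panels, while B6 CRS 14 (13.9 TPM) is second on the left panel but in the middle of the right one, at 2713.7 TPM.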

How the data were processed

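The values used were TPM as deposited by the authors in 1 table of the series, 1 column per library and 147902 rows. The unit was read from the column totals of 1000000. Per the submitters' processing notes, cutadapt 2.9, Salmon and the build GRCm38 were used, and per the labels' protocols libraries were stranded, poly(A)-selected and read in pairs of 150 bp to a planned 6 Gb. The annotation and strand setting are not given in the sources used here.

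TPM was summed per gene name. Then log2(TPM + 1) was fitted in limma 3.58.1 (R 4.3.3) with 4 group means over all 12 libraries and an intensity trend. The spread of a gene was pooled over the 4 groups. A run on simulated data with independent noise per gene checked only that estimated differences were near those put in. Calls were made at an adjusted p under 0.05 (Benjamini-Hochberg over 16423 genes). Fold changes on this scale understate the change of low genes. Each mouse gave 1 library, so p-values measure the spread between mice.

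All 7 members were named, and of each list the genes called or the 3 of lowest p. The most like genes were the 3 of highest correlation, leaving out Gm, Rik and -ps symbols. Members and lists were chosen with earlier results of these data known. Alternatives covered the pseudocount, filter, scaling, trend, marker covariates, a replicate block, the samples fitted and each library left out; the highest row per gene was added after seeing the data. Promoters came from RefSeq and gene spans from GENCODE M21.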

Additional observations from a re-analysis of the deposited data

How the results depend on the processing

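Of 826 values of the 7 members under alternative settings, 793 kept their direction and their side of the threshold, 28 changed sign and 5, all of Egr1, became called. The numbers 9, 12 and 13 occur in both strains but name different mice, and same-numbered libraries did not deviate together (correlations -0.242, -0.029 and -0.036). With them as a replicate block, Nr4a2 changed sign in B6 (0.094), in BALB/c (0.58) and on average (0.34), and 1 gene was called in B6, 0 in BALB/c and 750 in the strain comparison under CRS, which had 1264. In BALB/c, Nr4a1 was at 0.26 without control 5 and at 0.10 without CRS 12, Egr4 at 0.037 without CRS 12, and Nr4a2 at 0.019 with the highest row. Most sign changes were of near-zero strain differences in controls: Egr1 0.12 and Egr2 0.054 with median-of-ratios scaling; Egr1 0.092 and Egr2 0.035 with TPM rescaled without mitochondrial RNA, Bc1 and 18S; Egr1 0.019, Egr2 0.32, Egr3 -0.032 and Egr4 0.018 with the striatal covariate; and Egr1 0.0077 and Egr2 0.22 with the excitatory covariate. Without B6 control 2 they were Egr1 0.092, Egr2 0.34 and Egr4 0.10, without B6 control 3 Nr4a3 0.028, without B6 control 9 Egr1 0.0033, without BALB/c control 9 Egr1 0.060, Egr2 0.25, Egr4 0.011 and Nr4a1 0.0052, and without BALB/c control 10 Egr3 -0.057. Under CRS, Nr4a2 was at 0.041 without B6 CRS 14. Leaving out 1 library in turn, member values ran from -1.89 to -0.37 in B6, from -0.86 to 0.26 in BALB/c, from -1.19 to 0.34 between strains in controls and from -0.76 to 1.14 under CRS. The causes were not tested.

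Genes called over the whole table in B6 (0) became 2 with a pseudocount of 0.1, 7 with no filter and 1 with a mean of at least 5 TPM. In BALB/c (1) they became 0 with a pseudocount of 0.1 or 5, with no filter, with the mean filter and with median-of-ratios scaling, 2 with the striatal covariate and 3 with the highest row. For the interaction (0) they became 2 with no filter and 1 with the striatal covariate, and on average (1) 2 with no filter, the mean filter and either rescaling. For strains in controls (777) they became 437 with the mean filter and 443 with only the 2 groups compared. Under CRS (1264) they became 702 with the mean filter, 236 with the striatal and 408 with the excitatory covariate. Leaving out 1 library in turn gave 0 to 2 genes in B6, 0 to 1 in BALB/c, 0 to 2 for the interaction, 0 to 2 on average, 425 to 1378 in controls and 539 to 920 under CRS. Members called stayed at 0 but for Egr1, 1 of 7, on average with the mean filter, either rescaling or leaving out 1 library (0 to 1), and under CRS with median-of-ratios scaling (1). TPM keeps no depth, so the counting error of low members such as Egr2 and Nr4a2 is unknown.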

Other observations

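Per1, which encodes a repressor of the circadian clock, is also an immediate early gene and is on the list of 30 used above. It was among the 3 genes most like Egr2 and Egr4 (0.94 each, Pearson correlation over 12 libraries with the strain mean subtracted). B6 mice had 51.3, 36.8 and 25.3 TPM without restraint and 24.2, 24.5 and 30.4 TPM with it. BALB/c mice had 33.5, 22.6 and 29.8 TPM without restraint and 17.8, 27.1 and 27.9 TPM with it. B6 control 2 was the highest library for Per1, as for Egr1, Egr2, Egr4 and Nr4a1. The hour of tissue collection is not in the labels, so its part in these values was not tested.

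Npas4, an activity-induced neuronal factor, was the 1 gene of the 30 other immediate early genes called as higher in BALB/c under CRS (log2 difference 1.30, SE 0.28, limma adjusted p 0.0171), where 2.37% of all tested genes were. Restrained B6 mice had 6.67, 6.11 and 7.30 TPM and restrained BALB/c mice 12.3, 22.2 and 20.8 TPM. These groups did not overlap, as for 6 of the 30 and 9.29% of all tested genes in this direction. B6 controls had 14.9, 14.7 and 10.2 TPM and BALB/c controls 22.3, 9.44 and 12.6 TPM. Its interaction value was 1.22 (SE 0.40, limma adjusted p 1.00).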
